A study of Mus musculus with 16 samples.

Results

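The genes described here encode proteins of the mitochondrial ribosome. They were chosen by name, as the probe sets whose single gene symbol in the platform annotation starts with Mrpl or Mrps and a digit. This gave 76 genes on 156 probe sets, out of 18193 genes on 34945 probe sets with 1 symbol. By their names, 47 of the genes (104 probe sets) belong to the large subunit and 29 (52 probe sets) to the small subunit. The measurements were total RNA of mouse two-cell embryos on 16 one-colour oligonucleotide arrays, with 4 arrays in each of 4 groups. BBB embryos held a maternal pronucleus, a paternal pronucleus and an ooplasm that were all of the B6 strain. BCB embryos differed from these in the maternal pronucleus, which was of the C3H strain, while the paternal pronucleus and the ooplasm were again B6. Each kind was measured untreated and after α-amanitin, which the labels spell α-amantin, an inhibitor of RNA polymerase II. The sources used here do not give the dose and time of α-amanitin, the number of embryos behind an array or whether the 4 arrays of a group came from separate embryo collections. The p-values therefore measure the spread between arrays, which may be technical.

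The mitochondrial ribosome translates the few proteins of the respiratory chain that mitochondrial DNA encodes. Its ribosomal RNAs come from the mitochondrial genome and are made by a separate polymerase, while its proteins are all encoded in the nucleus, translated in the cytosol and imported. Some of these proteins have counterparts in bacterial ribosomes and others are found only in mitochondria. In the mouse, the early embryo starts with RNA stored in the egg, and the main wave of transcription from its own genome takes place at the two-cell stage.

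Names do not always give the place of the protein. Mrps30 and Mrps18a are carried in the large subunit in mammalian structures, and Mrps36 is a component of the 2-oxoglutarate dehydrogenase complex. These genes were kept with the small subunit, as named. The 3 Mrps18 genes, Mrps18a, Mrps18b and Mrps18c, are paralogues of 1 bacterial protein.

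Promoters of 5 genes are shown because these genes carry the main contrasts below: Mrpl51 with the largest fall of the 76 genes after α-amanitin, Mrpl10 with a rise, and the 3 Mrps18 paralogues, of which Mrps18a rose and the other two fell. RefSeq promoters (mouse build GRCm38.p6) were matched by gene identifier for 67 of the 76 genes. Each line gives the 250 bases before the gene's start, 5′ to 3′ on the gene's strand, and capitals mark 1 searched motif. The coordinates are chr6:125191950-125192199 (plus strand) for Mrpl51, chr11:97041332-97041581 (plus) for Mrpl10, chr17:46110754-46111003 (plus) for Mrps18a, chr17:35916441-35916690 (minus) for Mrps18b and chr5:100798509-100798758 (plus) for Mrps18c.
Mrpl51: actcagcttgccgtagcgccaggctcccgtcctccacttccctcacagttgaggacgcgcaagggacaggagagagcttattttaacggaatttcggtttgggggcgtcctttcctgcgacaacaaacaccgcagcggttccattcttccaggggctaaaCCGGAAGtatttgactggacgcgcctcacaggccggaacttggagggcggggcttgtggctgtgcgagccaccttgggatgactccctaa
Mrpl10: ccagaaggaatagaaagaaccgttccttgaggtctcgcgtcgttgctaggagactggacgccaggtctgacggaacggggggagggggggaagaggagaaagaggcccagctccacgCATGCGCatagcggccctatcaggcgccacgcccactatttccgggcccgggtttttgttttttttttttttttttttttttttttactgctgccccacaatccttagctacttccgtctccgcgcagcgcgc
Mrps18a: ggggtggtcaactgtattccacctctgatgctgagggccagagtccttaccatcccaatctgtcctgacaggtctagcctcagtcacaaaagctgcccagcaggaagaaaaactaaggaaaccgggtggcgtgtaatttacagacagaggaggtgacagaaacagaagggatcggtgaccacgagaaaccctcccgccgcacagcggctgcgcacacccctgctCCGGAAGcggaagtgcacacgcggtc
Mrps18b: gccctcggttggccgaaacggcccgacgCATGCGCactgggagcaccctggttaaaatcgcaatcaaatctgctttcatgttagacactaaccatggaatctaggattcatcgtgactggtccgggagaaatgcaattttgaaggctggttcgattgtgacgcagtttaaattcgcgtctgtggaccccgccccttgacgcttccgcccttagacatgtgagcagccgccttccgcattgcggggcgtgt
Mrps18c: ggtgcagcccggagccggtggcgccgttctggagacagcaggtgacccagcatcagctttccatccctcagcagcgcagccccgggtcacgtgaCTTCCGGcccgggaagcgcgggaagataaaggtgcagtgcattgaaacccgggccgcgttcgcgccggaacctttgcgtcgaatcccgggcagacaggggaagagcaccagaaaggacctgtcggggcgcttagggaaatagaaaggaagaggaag
The capitals mark CCGGAAG, part of the motif of ETS factors, in Mrpl51, in Mrps18a and, on the opposite strand, in Mrps18c. In Mrpl10 and Mrps18b they mark GCGCATG, part of the motif of NRF1, on the opposite strand. The motif began 90 bases before the start in Mrpl51, 26 in Mrps18a, 156 in Mrps18c, 133 in Mrpl10 and 222 in Mrps18b.

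The 2 motifs, and AAGATGG, part of the motif of YY1, were searched on both strands in the 250 bases before and 50 bases after the start. In this longer stretch Mrps18b also held CCGGAAG and Mrps18a also held AAGATGG, matches that the printed bases do not show. None of the 3 motifs holds another. CCGGAAG was found in 25 of the 67 genes (37.3%), against 15% of the 14369 genes of the array with a promoter and 9.93% of all 27025 genes in the promoter table. GCGCATG was found in 8 of the 67 (11.9%), against 6.33% and 4.41%. AAGATGG was found in 13 (19.4%), against 7.55% and 7.28%. Within the family, CCGGAAG was present in 14 of 41 large-subunit genes (34.1%) and 11 of 26 small-subunit genes (42.3%). It was present in 15 of 32 genes that fell in both kinds of embryo after α-amanitin (46.9%), in 5 of 13 that rose in both (38.5%) and in 5 of the other 22 (22.7%). These shares are a description, and a match is not a binding site.

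Facts of the whole data set bear on every fold change. With 2% of the values trimmed at each end, every one of the 16 arrays had a mean of 150.0, so the arrays had been scaled to a common mean. On this scale the hybridization control probe sets (9) were higher with α-amanitin by 0.55 (log2) in BBB and 0.81 in BCB. The poly-A control probe sets (12) were higher by 1.85 and 1.87. Whether the amounts of these controls or the RNA per array differed between the groups was not tested. A change in RNA per embryo and a change in the number of embryos cannot be told apart here. Arrays correlated at 0.976 to 0.990 within a group and at 0.764 to 0.815 between treated and untreated arrays, and no 2 arrays were identical. Zfp352, a gene switched on at the two-cell stage, had a mean intensity of 4676.2 in BBB and 171.9 in BBB with α-amanitin, and of 4298.1 and 196.5 in BCB. The summed intensity of 4 two-cell markers was 9970 and 380.7 in BBB, and 8883.1 and 422.1 in BCB. That of 5 oocyte markers was 10920.9 and 19465.7 in BBB, and 10800 and 18293.4 in BCB. Zp3 alone among these 5 changed little, at 738.9 and 747.3 in BBB and 714.1 and 682.6 in BCB. The sum of 7 cumulus cell markers was 67.6 and 69.4 in the untreated groups and 126.4 and 153.7 with α-amanitin, and that of 6 sperm markers was 55.6 and 48.9, and 80.9 and 93.3. The part of the control shift and of these markers in the results was not tested.

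All 76 genes could be tested. A probe set was tested where it reached the 40th percentile of its array on at least 4 arrays, a value of 10.8 to 14.1. The probe sets that stand for 69 of the genes reached it on all 16 arrays, and those of the other 7 on at least 9. None reached it only on untreated arrays or only on treated arrays. Mrps10 and Mrpl33, which fell in both kinds, met the rule through the untreated groups, where they are high. Mrps10 read 29.1 to 52.1 on untreated arrays and 0.7 to 18.4 with α-amanitin. Mrpl33 read 15.3 to 33.8 and 5.4 to 15.9. For both, too few treated arrays reached the percentile, and their falls are counted below with this limit. Mrps18c and Mrps28 had treated values of 12.9, within the range of the percentile, so whether the same holds for them is not given here. Where a gene had several tested probe sets, the one with the highest mean over the 16 arrays stands for it, and changes are differences of log2(intensity + 16), which understates the change of dim probe sets. Genes were called where the adjusted p in limma was under 0.05.

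After α-amanitin, more genes of the mitochondrial ribosome fell than rose in both kinds of embryo. In BBB, 41 of the 76 genes (53.9%) fell and 14 (18.4%) rose. The background over all 15274 genes tested was 33.1% called lower and 37.1% called higher. Of the called genes, 26 of the 76 fell at least 2-fold and 2 rose at least 2-fold, with a background of 21.9% and 15.9%. The median change was -0.45, against 0.11 over all genes. In BCB, 38 genes (50%) fell and 16 (21.1%) rose, with a background of 31.9% lower and 39.9% higher. Here 24 fell at least 2-fold and 4 rose at least 2-fold (background 21.1% and 16.2%). The median was -0.42, against 0.17 over all genes. Of the genes that fell, 36 did so in both kinds, which is 87.8% of those in BBB and 94.7% of those in BCB. Of those that rose, 13 did so in both, 92.9% and 81.2%. No gene was called in opposite directions in BBB and BCB. The same overlap over all genes tested is not given here, so it is not read as a trait of this family. Over all genes tested, the interaction of strain and α-amanitin was called for 0.255%. These directions depend on the scaling of the arrays. With arrays scaled to the poly-A controls, all 41 and 38 falls were kept, and Mrpl48 was the only rise that was kept in either kind. With the hybridization controls, all falls were kept, as were 6 of the 14 rises in BBB and 3 of the 16 in BCB. Both sets of controls were higher with α-amanitin, so both scalings lower the treated arrays against the untreated ones. They could not turn a fall into a rise, and the falls kept under them are no test of the falls. Quantile normalization kept 35 of the 41 falls and 13 of the 14 rises in BBB, and 32 of the 38 falls and 15 of the 16 rises in BCB, and the other calls were lost without a call in the opposite direction. With the mean of a gene's tested probe sets, 35 of the 41 falls in BBB were kept, 5 were lost and 1 was called higher, and 33 of the 38 in BCB were kept.

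The share of genes that fell in BBB was similar in both subunits. In BBB, 25 of the 47 large-subunit genes fell (53.2%), 6 rose (12.8%) and 16 were not called, with a median of -0.46. Of the 29 small-subunit genes, 16 fell (55.2%), 8 rose (27.6%) and 5 were not called, with a median of -0.45. In BCB the large subunit had the same counts, 25 lower and 6 higher, of which 23 and 5 genes were shared with BBB, and its median was -0.43. The small subunit had 13 lower (44.8%) and 10 higher (34.5%), with a median of -0.26. This median was -0.16 without treated BCB replicate 3 and turned to 0.049 with quantile normalization, where all genes tested had 0.23. The large-subunit medians were -0.13 in BBB and -0.19 in BCB with quantile normalization. No test compared the subunits with each other. Among the deeper falls, 8 of the 47 large-subunit genes fell at least 4-fold in BBB and 10 in BCB, against 3 of the 29 small-subunit genes in each. As background, 11.1% of the genes tested were called and fell this far in BBB, and 11.1% did in BCB. With Mrps30 and Mrps18a moved to the large subunit, where their proteins lie, its counts in BBB were 26 lower and 7 higher of 49, and those of the small subunit 15 lower and 7 higher of 27.

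The medians were also read on single arrays. The median intensity over the large-subunit genes lay between 225.7 and 264.9 on the BBB arrays and between 88.9 and 109.1 on those with α-amanitin. The small-subunit median lay between 123.6 and 139.1 on the BBB arrays and between 78.7 and 133.7 with α-amanitin. In BBB the large-subunit medians of treated and untreated arrays lay apart and those of the small subunit overlapped. In BCB both lay apart, at 200.1 to 222.4 untreated and 83.9 to 101.9 treated for the large subunit and at 106.0 to 119.3 and 75.6 to 103.8 for the small subunit. The medians over all genes tested also lay apart, at 87.2 to 89.5 and 56.0 to 64.1 in BBB and at 85.0 to 90.5 and 61.4 to 64.8 in BCB.

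**Figure D1:**
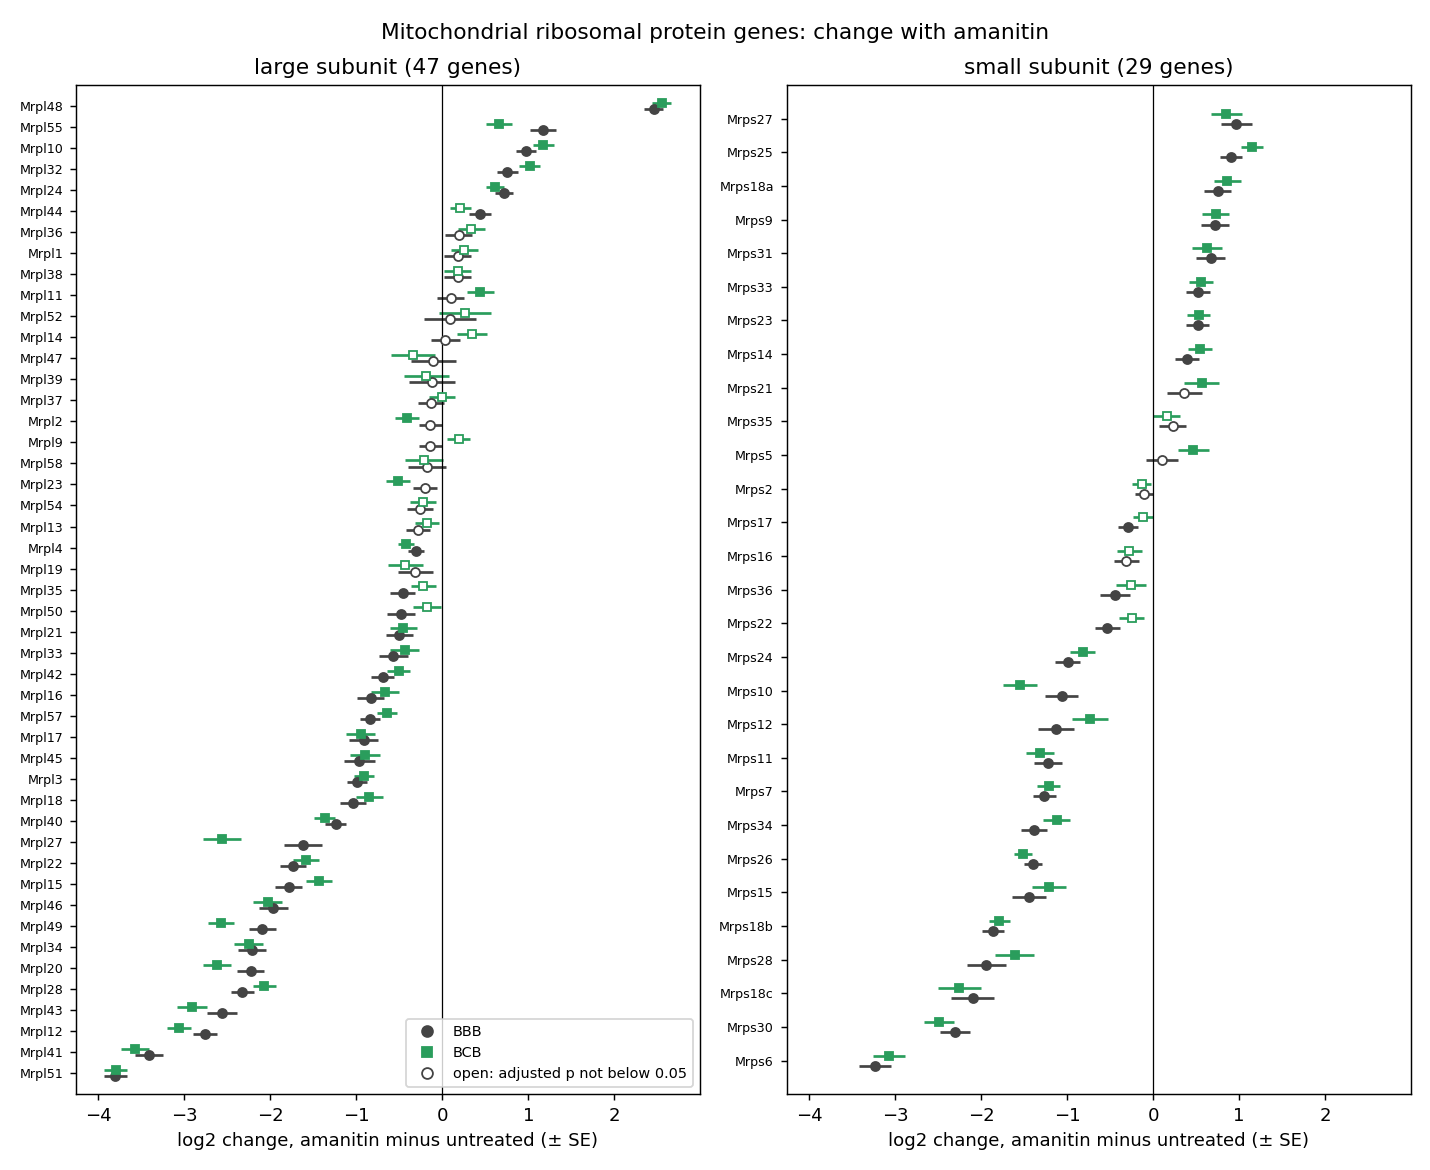
Change with α-amanitin of each of the 76 genes, as the log2 difference of amanitin minus untreated arrays ± SE (horizontal axis), for the large subunit (left) and the small subunit (right), with circles for BBB and squares for BCB and open symbols where the adjusted p was not below 0.05. The changes run from -3.80 for Mrpl51 to 2.46 for Mrpl48 in BBB, and most rises other than Mrpl48 turn into falls when arrays are scaled to the poly-A controls.

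Mrpl51, a large-subunit protein found only in mitochondria, had the deepest fall. Its probe set (1416877_a_at) read 1769.5, 1911.4, 1638.7 and 1728.8 on the BBB arrays, and 111.1, 136.6, 124.7 and 80.2 on those with α-amanitin. In BCB it read 1852.0, 1997.3, 1893.1 and 1700.8 untreated, and 101.9, 102.2, 136.0 and 138.8 with α-amanitin. Every treated array lay far below every untreated one in both kinds. The genes named here and below for a fall or a rise were picked among those whose arrays did not overlap. Their lack of overlap is therefore part of the choice and no added evidence. The change was -3.80 ± 0.13 (SE) in BBB (limma adjusted p 2.35e-17) and -3.80 in BCB (2.23e-17).

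Mrpl41, also known only from mitochondrial ribosomes, followed the same pattern. It read 1381.6, 1309.8, 1120.5 and 1252.0 on the BBB arrays and 87.5, 102.5, 114.7 and 116.0 with α-amanitin, a change of -3.41 ± 0.16 (adjusted p 8.85e-15). In BCB its means were 1223.9 ± 69.2 (SD, n = 4) untreated and 92.8 ± 38.6 treated, a change of -3.57. The groups did not overlap in either kind. Mrpl12, the protein of the flexible stalk that contacts translation factors, fell from 489.7, 566.2, 468.0 and 501.3 to 63.9, 60.3, 73.6 and 48.3 in BBB. Its changes were -2.76 in BBB (adjusted p 1.63e-14) and -3.06 in BCB (2.50e-15). Mrpl43, another mitochondria-specific protein, changed by -2.56 and -2.91, and its treated arrays in BCB read 31.5 to 44.5 against 321.3 to 420.3 untreated. Mrpl28 (-2.33 in BBB, -2.07 in BCB) and Mrpl20 (-2.23 and -2.62), which both have bacterial counterparts, complete the large-subunit genes that the naming rule picked for their falls.

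In the small subunit, Mrps6 fell most. Mrps6 is the counterpart of a bacterial small-subunit protein. It read 1497.2, 1356.8, 959.2 and 1052.1 on the BBB arrays and 144.3, 95.3, 149.1 and 78.7 with α-amanitin. In BCB it read 1109.9, 1050.9, 1061.8 and 1207.0 untreated and 166.0, 119.9, 121.4 and 77.7 treated. Treated and untreated arrays did not overlap, as the naming rule required, and the changes were -3.23 ± 0.19 (adjusted p 2.67e-13) and -3.07 (6.88e-13). Mrps30, whose protein sits in the large subunit, read 498.7, 464.2, 415.2 and 401.1 in BBB and 72.4, 56.9, 75.4 and 109.8 with α-amanitin. Its changes were -2.31 in BBB and -2.48 in BCB. Mrps28, a small-subunit protein, changed by -1.94 in BBB and -1.61 in BCB. Mrps36, the dehydrogenase component, stood apart from these with -0.45 in BBB (adjusted p 0.0278) and -0.26 in BCB (0.187). Its call in BBB was lost when BBB replicate 2, 3 or 4 or treated replicate 1 or 2 was left out, with adjusted p from 0.0507 to 0.0868, and with quantile normalization (-0.13, adjusted p 0.530).

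The 3 Mrps18 paralogues, whose promoters are shown above, did not move together. Mrps18b read 674.7, 680.9, 550.8 and 589.4 on the BBB arrays and 172.7, 142.6, 140.7 and 185.8 with α-amanitin. Mrps18c, the paralogue with the closest role to the bacterial protein, read 138.1, 100.2, 136.2 and 126.2 and then 7.5, 37.4, 25.5 and 6.3. Mrps18a read 18.5, 17.0, 18.8 and 25.8 and then 55.0, 53.4, 37.0 and 35.0. Mrps18b and Mrps18c were thus lower on every treated array and Mrps18a was higher on every one. The changes in BBB were -1.86 ± 0.13 for Mrps18b (adjusted p 5.20e-12), -2.10 ± 0.25 for Mrps18c (8.52e-08) and 0.75 ± 0.16 for Mrps18a (1.79e-04). In BCB they were -1.79, -2.25 and 0.86. Scaled to the poly-A controls, Mrps18a changed by -0.45 in BBB and -0.35 in BCB, so that its sign turned. The falls of Mrps18b and Mrps18c were kept, which this scaling could not turn.

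Mrpl48 was the gene with the largest rise, and the only one whose rise was kept under every scaling tried. Mrpl48 is a mitochondria-specific protein of the central protuberance of the large subunit. Its probe set (1428302_at) read 294.2, 249.4, 343.5 and 342.7 on the BBB arrays and 1852.2, 2004.2, 1712.2 and 1464.3 with α-amanitin. In BCB it read 281.5, 274.4, 242.5 and 286.3 untreated and 1609.4, 1532.9, 1695.2 and 1836.6 treated. The lowest treated array was several times the highest untreated one. The change was 2.46 ± 0.11 in BBB (adjusted p 4.44e-15) and 2.55 in BCB (2.18e-15). With arrays scaled to the poly-A controls it was 0.65 (adjusted p 0.0031) and 0.73 (0.0011). All 3 of its tested probe sets were called higher in BBB, with changes of 2.46, 2.02 and 0.49. In BCB, 2 of the 3 were called higher and 1 was not called.

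The other rises were smaller, and 12 of the other 13 in BBB were called lower when arrays were scaled to the poly-A controls, with 1 not called. Mrpl10, which anchors the stalk of Mrpl12 to the large subunit, read 520.3, 546.5, 569.9 and 660.8 on the BBB arrays and 1187.0, 1029.1, 1070.8 and 1297.4 with α-amanitin. The treated arrays lay above all untreated ones, and the change was 0.98 ± 0.12 (adjusted p 1.09e-07). In BCB it was 1.18. Mrpl10 thus rose on this scale while its partner Mrpl12 fell. Scaled to the poly-A controls, Mrpl10 changed by -0.84 in BBB and -0.66 in BCB.

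Mrps25, a mitochondria-specific small-subunit protein, read 175.4, 188.4, 197.7 and 193.0 in BBB and 355.6, 321.3, 391.2 and 401.5 with α-amanitin. Its changes were 0.90 in BBB (adjusted p 1.27e-06) and 1.15 in BCB. Mrps27, a pentatricopeptide repeat protein of the small subunit, read 38.3, 46.6, 42.7 and 48.1 and then 121.0, 81.5, 133.7 and 77.4. Mrps25 and Mrps27 had no overlap between treated and untreated arrays. The changes of Mrps27 were 0.97 (adjusted p 4.42e-05) and 0.85. Mrpl55 changed by 1.18 in BBB and 0.66 in BCB, Mrpl32 by 0.76 and 1.02, and Mrps9 by 0.72 and 0.73. With the hybridization controls, Mrpl32 and Mrps9 were not called in either kind, nor were Mrpl55, Mrps18a and Mrps27 in BCB, where the value of Mrpl55 turned to -0.044 (adjusted p 0.837). Mrps14, named for its bright probe set, read 1748.9, 1649.0, 1647.0 and 1861.0 in BBB and 2667.5, 1738.4, 2109.1 and 2730.7 with α-amanitin, so that the groups overlapped. Its change of 0.40 in BBB (adjusted p 0.0182) was lost without treated BBB replicate 1 (0.32, adjusted p 0.0708) or 4 (0.31, 0.0740), and with quantile normalization (0.078, adjusted p 0.630). In BCB, Mrps14 was called higher by 0.54 (adjusted p 0.0018), and there too the groups overlapped.

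**Figure D2:**
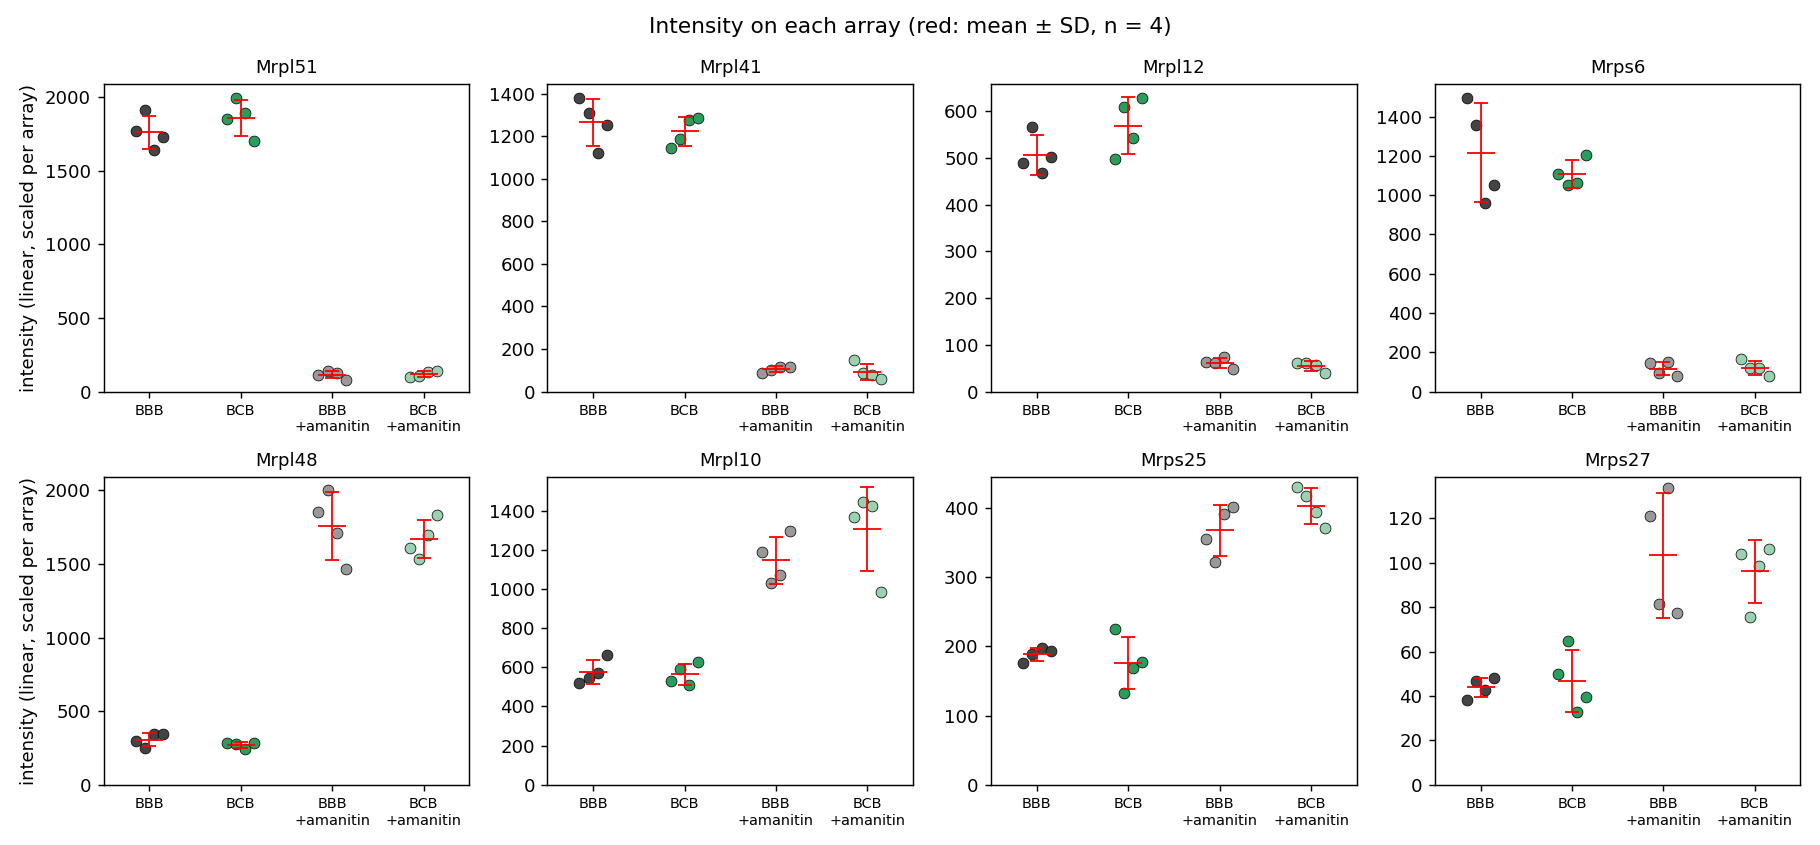
Intensity (linear, scaled per array) on each array for 8 genes in the 4 groups, with points for arrays and red bars for the mean ± SD (n = 4). The 4 genes of the upper row lie lower on every treated array and the 4 of the lower row higher, and of these 4 only Mrpl48 stays higher when arrays are scaled to the poly-A controls.

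Probe sets of 1 gene did not always move the same way. In BBB, 37 of the genes had at least 2 tested probe sets. All probe sets of the gene were called lower for 10 genes and higher for 1 (Mrpl48), some were called in 1 direction for 12, none for 8, and 6 genes (16.2%) had probe sets called in opposite directions. Over all 6804 genes with at least 2 tested probe sets, 12.3% had opposite calls. The 6 were Mrpl3, Mrpl17, Mrpl35, Mrpl44, Mrpl51 and Mrpl57, all of the large subunit, which also holds most of the 37 genes. In BCB, 5 genes had opposite calls (13.5%, against 12.6% of all genes): Mrpl3, Mrpl17, Mrpl51, Mrpl57 and Mrps10.

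Mrpl51 was among them. Its other probe sets, 1416878_at and 1416879_at, were called higher, by 0.94 (adjusted p 2.66e-05) and 0.73 (0.0020). The first read 23.3, 21.6, 22.1 and 26.0 on the BBB arrays and 45.7, 73.9, 60.2 and 59.1 with α-amanitin. Mrpl3, a protein next to the peptidyl transferase centre, had 2 probe sets that fell, with changes of -0.997 and -0.60, and another (1440636_at) that rose (adjusted p 1.08e-05). The latter read 114.2, 143.8, 195.9 and 185.7 and then 263.4, 367.5, 312.0 and 389.1. For Mrpl35 the probe set that stands for the gene fell by 0.46 on the log2 scale, a call lost with quantile normalization (-0.14, adjusted p 0.414), and another (1419362_at) rose by 1.73, from 20.9, 15.3, 29.1 and 22.4 to 161.6, 80.0, 121.2 and 88.6. The mean over the tested probe sets of Mrpl35 changed by 0.52. Mrpl44, a protein with a ribonuclease III fold, ran the other way: its chosen probe set rose by 0.44 and 2 others changed by -0.52 and -0.76. The mean over its tested probe sets changed by -0.28. In Mrpl17 the values were -0.91 and 0.69, and in Mrpl57 -0.85 and 0.39. With the mean over tested probe sets, the falls of Mrpl3 (-0.20, adjusted p 0.120), Mrpl17 (-0.034, 0.832) and Mrpl57 (-0.23, 0.0794) were not called. Which transcripts each probe set measures was not tested.

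**Figure D3:**
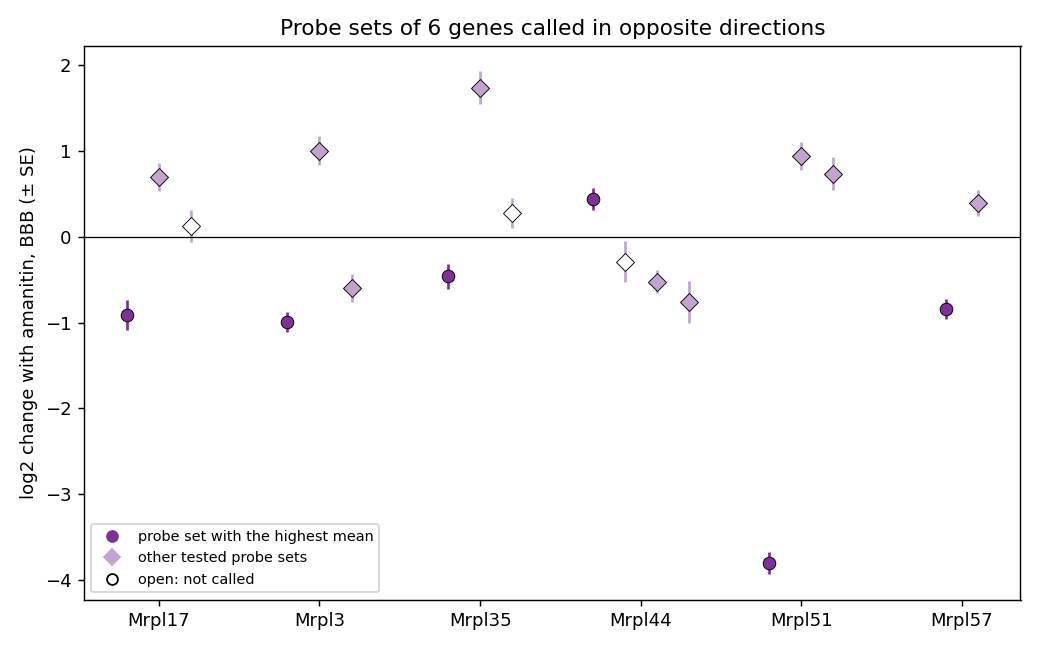
Log2 change with α-amanitin in BBB ± SE of every tested probe set of the 6 genes whose probe sets were called in opposite directions, with circles for the probe set that stands for the gene, diamonds for the others and open symbols where not called. Mrpl51 spans the widest range, from -3.80 to 0.94.

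The comparison of BCB with BBB asks whether the strain of the maternal pronucleus changed these genes. No gene of the mitochondrial ribosome was called. In untreated embryos, 0 of 76 passed the adjusted p in limma (background 0.655% of all genes tested). At an unadjusted p under 0.05 there were 4 (5.26%), all of the large subunit, against 7.06% of all genes. The 95% interval of the difference lay within 2-fold for 75 of the 76 genes, with Mrpl27 as the exception, and the median half-width of the intervals was 0.32. With α-amanitin, 0 of 76 were called (background 0.0786%) and 5 had an unadjusted p under 0.05 (6.58%, against 10.7% of all genes). All 76 intervals lay within 2-fold. The interaction, the difference of the amanitin effects, gave 0 calls (background 0.255%) and 3 at an unadjusted p under 0.05 (3.95%, against 8.05%). Its intervals reached 2-fold for 4 genes: Mrpl27, Mrpl52, Mrps10 and Mrps12.

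Mrpl35, a large-subunit protein with a bacterial counterpart, had the smallest adjusted p in untreated embryos. It read 317.8, 240.1, 246.9 and 266.3 on the BBB arrays and 192.8, 170.7, 133.6 and 199.4 on the BCB arrays. The 4 BCB arrays lay below the 4 BBB arrays, and the difference was -0.58 ± 0.14 with an adjusted p of 0.0725. With α-amanitin the arrays also did not overlap, at 165.0 to 228.1 in BBB and 114.7 to 160.9 in BCB, and the difference was -0.34 (adjusted p 0.386). The untreated difference passed with a pseudocount of 64 (adjusted p 0.0290) and when only the groups compared were fitted (0.0467). It was -0.21 (adjusted p 0.804) with the mean of the tested probe sets. Leaving out each array in turn gave adjusted p from 0.0529 to 0.364, the highest without BCB replicate 3.

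Mrpl27, another large-subunit protein with a bacterial counterpart, is named for the interaction, and its untreated difference was chosen after its values were seen. It read 131.7, 137.1, 130.1 and 106.8 in BBB and 169.2, 265.0, 260.2 and 285.0 in BCB. All BCB arrays lay above all BBB arrays, and the difference was 0.85 ± 0.22 (adjusted p 0.0972). Its other probe set read 7.6, 7.0, 8.5 and 7.7 in BBB and 13.0, 21.0, 13.2 and 26.6 in BCB, which also did not overlap, with a difference of 0.52 (adjusted p 0.191). With α-amanitin the gene read 38.5, 42.7, 33.2 and 13.2 in BBB and 46.1, 35.3, 19.6 and 15.3 in BCB, so that the arrays overlapped. The interaction was -0.95 ± 0.31 (adjusted p 0.322). Leaving out each array in turn gave adjusted p from 0.0343 to 0.335 for the untreated difference of Mrpl27. It passed in 2 of these 16 fits, without BCB replicate 1 (1.01, adjusted p 0.0470) and without treated BBB replicate 4 (0.0343). With a pseudocount of 1 the adjusted p was 0.583, and with one of 64 it was 0.0047. It also passed with the hybridization controls (0.0109), with the mean of the tested probe sets (0.0352) and when only the groups compared were fitted (0.0084).

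In the small subunit the smallest adjusted p values were further from the threshold. Mrps34 differed by -0.26 in untreated embryos (adjusted p 0.868), with 182.4, 144.6, 161.1 and 139.1 in BBB and 150.7, 108.5, 101.0 and 161.5 in BCB, which overlapped. Mrps10 had an interaction of -0.48 (adjusted p 0.670). With α-amanitin, Mrps11 differed by -0.33 (adjusted p 0.480), and Mrpl49 of the large subunit by -0.52 (adjusted p 0.215).

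**Figure D4:**
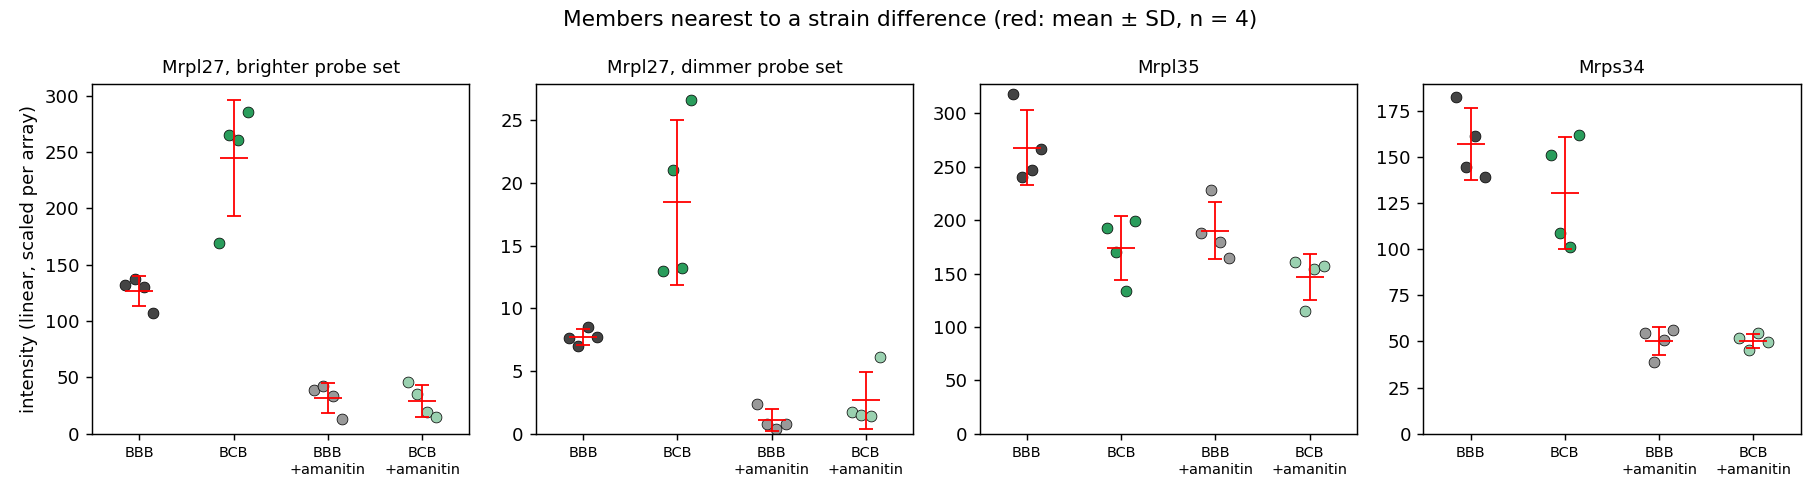
Intensity (linear, scaled per array) on each array in the 4 groups for both tested probe sets of Mrpl27, for Mrpl35 and for Mrps34, with points for arrays and red bars for the mean ± SD (n = 4). Untreated BCB arrays lie above BBB in both Mrpl27 panels and below BBB for Mrpl35, and none of the differences passed the adjusted threshold.

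Other genes of mitochondrial translation were described from 4 lists. The naming rule picked Ptcd3, Pdf, Mrrf, Trub2, Nsun4, Trmt10c and Supv3l1, and the other genes named from these lists were chosen after their values were seen. The counts below stand against the shares of all genes tested, 33.1% lower and 37.1% higher in BBB and 31.9% and 39.9% in BCB. They include genes that met the filter through the untreated groups, where they are high, such as Mrm2 and Tfam. Mrm2 (-0.97 in BBB) read 12.2 to 26.9 untreated and 0.6 to 8.8 with α-amanitin. Tfam read 68.0 to 135.8 and 0.3 to 24.5. The other genes of the lists were not sorted by this limit. The list of mitochondrial ribosome proteins with other names had 3 of 5 genes that fell and none that rose in either kind. It includes Oxa1l, which is an insertase and not a ribosomal protein. Chchd1 (-1.23 in BBB), Ptcd3 (-0.99) and Oxa1l (-0.85), the insertase that receives new proteins at the inner membrane, fell. Dap3 (0.05) and Gadd45gip1 (0.25) were not called. Of 11 translation factors, 6 fell and 3 rose in BBB, and 5 and 2 in BCB. Pdf, which removes the formyl group of new proteins, changed by -1.88, and Tufm, the elongation factor that brings the transfer RNA, by -1.79. Mrrf, the ribosome recycling factor, rose by 1.26, and changed by -0.54 when scaled to the poly-A controls.

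Assembly and ribosomal RNA modification factors had a lower median than the family itself, with 14 of 27 genes lower and 5 higher in BBB and a median of -0.96. In BCB 14 fell and 4 rose, with a median of -0.93. Trub2, a pseudouridine synthase, changed by -5.10 in BBB and -4.81 in BCB. Trmt61b, a methyltransferase, changed by -4.57 and -3.88, and Noa1, a GTPase of small-subunit assembly, by -3.45 and -3.19. Nsun4, a methyltransferase that acts where the subunits are joined, rose by 1.48 and changed by -0.36 (adjusted p 0.0702) when scaled to the poly-A controls. Of 19 genes of mitochondrial transcription and RNA processing, 11 fell and 4 rose in BBB, and 11 and 7 in BCB. Trmt10c, a subunit of mitochondrial RNase P, changed by -4.57, the single-strand binding protein Ssbp1 by -3.98 and the mitochondrial RNA polymerase Polrmt by -3.07. Supv3l1, an RNA helicase, rose by 1.43 and changed by -0.40 when scaled to the poly-A controls.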

How the data were processed

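The deposited values are the intensity of each probe set on a linear scale, for 45037 probe sets and 64 controls. The sources used here give no software, scaling method or detection calls. The trimmed mean of 150.0 on every array was found from the values. Per the labels, a Picopure kit was used for extraction and an ENZO kit for the biotin label.

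Of the 45037 probe sets, 34945 have 1 gene symbol, 932 several and 9160 none. RefSeq changed no symbol of the 76 genes. Mrpl30 and Mrpl53 lie on probe sets with several symbols and were not used. Log2(intensity + 16) of the 31953 probe sets that passed the filter was fitted for all 16 arrays with limma 3.58.1 (R 4.3.3), with 1 mean per group, empirical Bayes moderation with an intensity trend and Benjamini-Hochberg adjustment over all probe sets tested. The script was tested on simulated data. The 4 arrays a group limit the precision. The contrasts, 5 in all, were α-amanitin in BBB and in BCB, BCB against BBB untreated and with α-amanitin, and the interaction. Spread is SD over arrays, and SE and intervals are from the model.

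The members, lists and rules were chosen with earlier results of these data known. For each amanitin contrast and subunit, the 5 largest falls and 4 largest rises without overlap between arrays were named. For each strain contrast, each subunit's member of smallest adjusted p was named where none was called. The rule also took the member with the highest mean in each subunit, the Mrps18 genes, Mrps30, Mrps36, members with opposite probe sets, and the smallest adjusted p in each direction of each list in BBB. The alternatives were other scalings, pseudocounts, filters, probe set choices and fits, and leaving out each array. Alternatives for some named members were added after seeing the data. The labels give no batch.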

Additional observations from a re-analysis of the deposited data

Results flagged for a closer look

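In groups of 4 arrays, an array was set aside for a closer look where its gap to the nearest other array as a share of the range exceeded the 95% critical value of Dixon's test. Of 124 groups tested, over the 31 genes picked by the naming rule and the 4 groups each, 5 met this. Chance gives about 1 in 20 such groups. All 5 were in BCB with α-amanitin, and in each the array lay below the other 3. Mrpl10 read 984.5 on array 4, against 1369.1 to 1442.2. Mrps14 read 1738.8 on array 4, against 2729.5 to 2827.8, and Mrpl3 read 197.4 on the same array, against 252.8 to 265.9. Mrpl17 read 31.5 on array 3, against 58.2 to 60.4. Mrpl35 read 114.7 on array 2, against 154.3 to 160.9.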

How the results depend on the processing

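Leaving out 1 array at a time gave 13 to 15 genes higher and 39 to 42 lower in BBB, 15 to 18 and 37 to 40 in BCB, and 0 to 1 higher and 0 lower in the untreated strain comparison. The medians ranged from -0.50 to -0.34 (large, BBB, with -0.34 without BBB replicate 1), -0.50 to -0.38 (small, BBB), -0.53 to -0.40 (large, BCB) and -0.37 to -0.16 (small, BCB). The scaling moved the results most. With the poly-A controls, 1 gene was higher and 74 lower in BBB, 1 and 73 in BCB, with medians of -2.01 (large) and -2.03 (small) in BBB and -1.97 and -1.92 in BCB, against -1.16 and -1.12 over all genes. With the hybridization controls, 6 were higher in BBB and 3 in BCB, with medians of -0.85, -0.86, -1.15 and -0.95, against -0.25 and -0.36 over all genes. The shares of all genes called under these control scalings are not given here. The counts of members under them therefore have no background and are not read as a trait of the family. With quantile normalization the medians were -0.13 (large, BBB), -0.19 (large, BCB) and 0.049 (small, BCB), against 0.22 and 0.23 over all genes, so that the small-subunit median in BCB reversed. A pseudocount of 64 gave -0.29 and -0.32 for the large subunit in BBB and BCB, and averaging all tested probe sets per gene gave -0.23 in BBB. In the untreated strain comparison, 1 gene (Mrpl27) was higher under the hybridization controls, a pseudocount of 64, the mean of probe sets and a fit of only the groups compared, and 1 (Mrpl35) was lower under a pseudocount of 64 and that fit.

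Scaled to the poly-A controls, these changes reversed in BBB: Mrpl55 -0.41, Mrpl10 -0.84, Mrpl32 -1.02, Mrps27 -0.52, Mrps25 -0.84, Mrps18a -0.45, Mrps9 -0.89, Mrps14 -1.44 and Mrpl44 -1.35. In BCB the reversed values were Mrpl10 -0.66, Mrpl32 -0.77, Mrpl55 -0.95, Mrps25 -0.61, Mrps18a -0.35, Mrps27 -0.64 and Mrps9 -0.85. With the hybridization controls, Mrpl55 in BCB was -0.044, Mrps14 in BBB -0.15 and Mrpl44 in BBB -0.10. With the mean of probe sets, Mrpl35 in BBB was 0.52 and Mrpl44 -0.28. The cause of these differences between scalings was not tested. Arrays with the same replicate number correlated at -0.09 to 0.11 in their deviations from group means, with 1 of 24 pairs over 0.1, so the numbers were not taken to pair the samples. With the replicate block, all calls of members with α-amanitin were kept (14 and 41 in BBB, 16 and 38 in BCB).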

Other observations

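Genes were also split by whether the protein has a counterpart in bacterial ribosomes. Over all genes tested, 33.1% fell and 37.1% rose in BBB, with a median change of 0.11, and 31.9% and 39.9% in BCB, with a median of 0.17. In the large subunit, 15 of 28 genes with a counterpart fell in BBB and 4 rose, with a median change of -0.39, and 10 of 19 mitochondria-only genes fell and 2 rose, with a median of -0.48. In the small subunit, 10 of 16 genes with a counterpart fell and 2 rose, with a median of -1.03. Of 10 mitochondria-only genes of the small subunit, 4 (40%) fell and 5 (50%) rose, with a median of 0.37. In BCB the small-subunit classes had 9 lower and 4 higher of 16, with a median of -0.78, and 3 lower and 5 higher of 10, with a median of 0.34. The difference between the classes was not tested, and rises other than that of Mrpl48 depend on the scaling as given above. Mrps18a, Mrps18b and Mrps36 were left out of this split. Mrps30, whose protein lies in the large subunit, was kept with the small subunit as named. Its change of -2.31 was the lowest of the mitochondria-only small-subunit genes in BBB.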
